A study of Caenorhabditis elegans with 24 samples.

Results

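The mir-51 family of Caenorhabditis elegans comprises the hairpins mir-51, mir-52, mir-53, mir-54, mir-55 and mir-56. Its members here are the rows of the deposited count table for both arms of these 6 hairpins, which gave 12 of the 434 mature miRNA arms in the table. All 12 had at least 1 read, and together they received 66904 of 9908958 counts, or 0.675%. Small RNA had been sequenced from wild-type N2 embryos, with 3 samples of 50 embryos for each of 8 stages. Counted from the 4-cell stage, the 4 earlier stages were at 60, 120, 180 and 225 min, and 4 more followed at 270, 330, 410 and 500 min. Embryos were cut out of adults and picked by mouth pipette, and no group carried a mutation or a treatment. Each library is a pool of whole embryos, so fewer cells of a type and less RNA per cell cannot be told apart. The labels do not say whether the samples of a stage were grown separately. A p-value here thus reflects the spread between samples only, except where stages are joined, and that spread may be technical.

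A miRNA is cut from a hairpin precursor whose 5p and 3p arms can each yield a mature strand, and the strand that is loaded into Argonaute finds its target messages mainly through its seed near the 5′ end. The mir-51 family is the nematode branch of the widely conserved miR-99/miR-100 family. In mir-51, mir-52 and mir-53 the family seed lies on the 5p arm, and in mir-54, mir-55 and mir-56 it lies on the 3p arm. These 6 arms are called seed arms here and the opposite ones partner arms. Loss of the whole family in C. elegans is lethal to the embryo, with detachment of the pharynx among the defects, while loss of a few members is tolerated. The mir-51 and mir-35 families are the miRNA families best known to be needed for C. elegans embryogenesis.

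The hairpins lie at 3 places in the genome. Coordinates are those of the Ensembl 115 annotation of WBcel235, since the build behind the counts is not given in the sources used here. On chromosome IV, mir-51 spans 11026013 to 11026112 and mir-53 spans 11027593 to 11027691, both on the minus strand with 1480 bases between them and no other annotated gene over either. The hairpin mir-52 lies 3006316 bases from mir-53, at 14034008 to 14034107 on the plus strand of chromosome IV, opposite an exon of an annotated noncoding RNA. On the minus strand of chromosome X, mir-56 spans 13144691 to 13144787, mir-55 spans 13144827 to 13144924 and mir-54 spans 13144996 to 13145094. These 3 hairpins fit in 404 bases, inside an intron of the protein-coding gene F09A5.3, which is on the opposite strand. The annotation also places cel-mir-55b on the strand opposite mir-55. Whether counting used strand is not given in the sources used here, so reads of such opposite-strand pairs cannot be told apart. The mature strands miR-52-5p and miR-53-5p are nearly identical, so the split of reads between them is uncertain.

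Library totals ran from 88482 counts in 225 min replicate 2 to 1594151 in 410 min replicate 3, and family counts ran from 196 to 9505 per library, so the least abundant arms had few or no reads in the shallow libraries. Levels are CPM, counts brought to a library of 1 fixed size, over library sizes scaled by edgeR's TMM factors. The sample label of embryo was checked against the mir-35 to mir-42 family, an embryonic marker, which held 5.02 ± 0.314% of counts at 60 min (SD, n = 3). This family held only 0.0473 ± 0.0195% at 500 min, so the check says little on the late libraries. Larval and adult markers (the let-7, lin-4, mir-48, mir-84 and mir-241 hairpins) held between 0 and 0.0339% of counts in 23 libraries and 0.0666% in 60 min replicate 3. Of the marker arms, miR-48-5p had 1498 reads in the whole table, miR-48-3p had 168, miR-241-3p had 64 and miR-241-5p had 46. By contrast, let-7-5p, let-7-3p and lin-4-3p had 1 read each, lin-4-5p had 3 and both arms of mir-84 had 0. The library 60 min replicate 3 also stood apart on the third principal component, where its score had a size of 18.03, against at most 9.08 in any other library. The part of these markers in the results was not tested, and values without 60 min replicate 3 are given where they end a call.

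Reads were spread very unevenly over the 12 arms. The seed arm cel-miR-52-5p took 47007 reads, or 70.3% of the family, and the partner arm cel-miR-51-3p took 14324, or 21.4%. The seed arm cel-miR-54-3p had 2649 reads and the partner arm cel-miR-53-3p had 1351, while cel-miR-55-3p had 508, cel-miR-51-5p 431, miR-56-3p 405 and miR-55-5p 120. The species prefix is left out from here on. These 8 arms passed the filter on low counts. The other 4 did not and were not tested: miR-53-5p had 48 reads in 7 libraries, miR-52-3p had 42 in 13, miR-54-5p had 13 in 1 library and miR-56-5p had 6 in 3. The 6 seed arms together made up 76.3% of the family's reads.

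Among the 8 tested arms, 5 differed over the 8 stages at an adjusted p under 0.05 in edgeR's quasi-likelihood F-test: miR-52-5p, miR-53-3p, miR-54-3p, miR-55-5p and miR-56-3p. That is 62.5% of the tested arms, against 68.0% of all 128 miRNA arms tested, so the family's share was close to the background. Against 60 min, 6 arms were higher at 1 or more later stages, and none was called lower at any in the fit on stage alone. At 120 min 1 of 8 was higher, where 2.34% of all arms tested were higher and 3.91% lower. At 180 min 3 were higher (15.6% of all arms higher, 13.3% lower), and at 225 min also 3 (18.0% higher, 21.9% lower). There were 4 at 270 min (19.5% higher, 21.1% lower) and 6 at 330 min (26.6% higher, 23.4% lower). The count was 5 at 410 min (32.8% higher, 23.4% lower) and 3 at 500 min (34.4% higher, 28.1% lower). At 500 min the family's count thus lay near the background. The 7 comparisons share the 60 min libraries, and an arm with no reads at 60 min could pass the filter only through later stages, so these counts describe the arms and give no support to a common direction. Between neighbouring stages 2 of 56 member tests passed. They were miR-54-3p at 120 min against 60 min, where 6.25% of all arms were called, and miR-52-5p at 180 min against 120 min, where 9.38% were called. No member was called in the other 5 steps, in which 1.56% (225 against 180 min), 3.91% (270 against 225 min), 1.56% (330 against 270 min), 10.9% (410 against 330 min) and 6.25% (500 against 410 min) of all arms were. At an unadjusted p under 0.05 there were 3 of 56, and DESeq2 called 4.

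**Figure D1:**
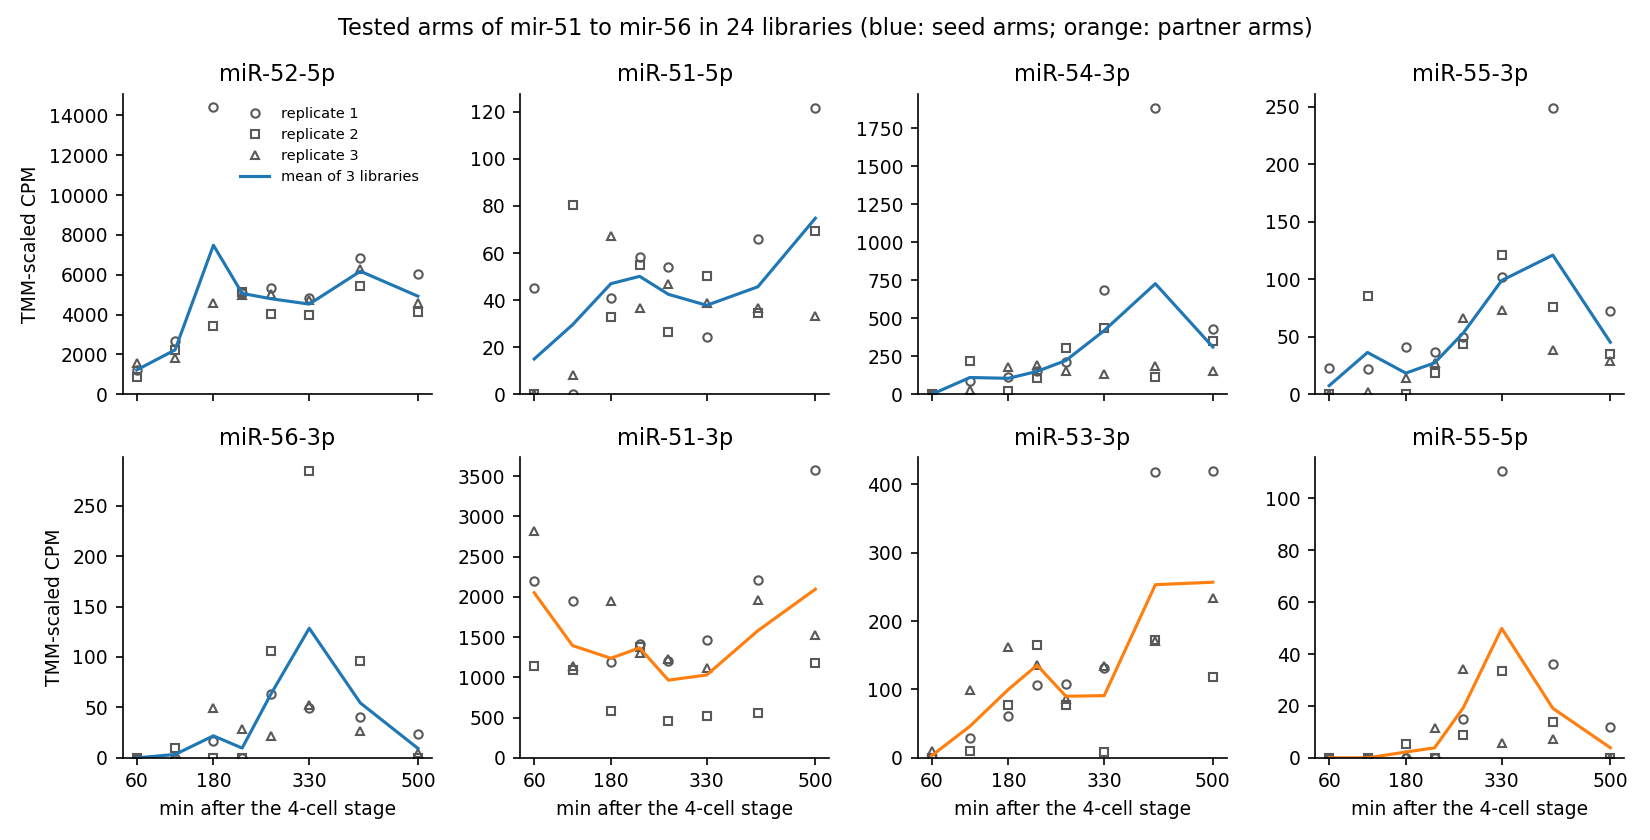
TMM-scaled CPM (y axis, linear and separate for each panel) of the 8 tested arms against minutes after the 4-cell stage (x axis); points are single libraries, with 1 marker shape per replicate number, and lines join the means of 3 libraries. The highest points of miR-52-5p (14422 CPM at 180 min) and miR-54-3p (1883 CPM at 410 min) are each 1 library, and the highest point of miR-51-3p (3581 CPM at 500 min) is too.

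The seed arm miR-52-5p, the family's most abundant strand, was read in all 24 libraries and rose after 60 min. It had 1214, 858 and 1591 CPM in the 3 libraries at 60 min and 2670.4, 2217 and 1799 CPM at 120 min. At 180 min it had 14422, 3427 and 4603 CPM, and at 225 min 5091, 5135 and 4967 CPM. In scaled CPM every library from 180 min on was above every library of 60 and 120 min. Replicate 1 at 180 min was more than 3 times its 2 companions. At 270 and 330 min the means were 4797 ± 692 and 4528 ± 463 CPM, and at 410 and 500 min 6177 ± 715 and 4924 ± 1010.2 CPM (SD, n = 3 each), all within 1.5 times of each other. The log2 fold change over 60 min was 2.61 ± 0.49 (SE, adjusted p = 0.000157, edgeR) at 180 min and 2.01 ± 0.48 (adjusted p = 0.000669) at 500 min. Each stage from 180 min on passed the test against 60 min. The course after 180 min depended on the measure. As a share of all counts, miR-52-5p averaged 0.761 ± 0.356% at 180 min, 0.556 ± 0.0460% at 270 min and 0.334 ± 0.0828% at 500 min. On that measure both arms of mir-52 together held 0.247 to 0.339% at 120 min and 0.268 to 0.427% at 500 min, so these libraries overlapped.

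At 120 min the same arm had a log2 fold change over 60 min of 0.87 ± 0.47 (SE, adjusted p = 0.213, edgeR). This step depended on scaling: the value was 1.56 (adjusted p = 0.00616) with DESeq2 size factors in edgeR and 1.77 (adjusted p = 0.000745) with total counts. As a share of all counts, miR-52-5p held 0.247, 0.339 and 0.297% at 120 min, against 0.0839, 0.0847 and 0.0901% at 60 min, and the groups did not overlap. The rise at 180 min over 120 min was 1.75 ± 0.48 on the log2 scale (adjusted p = 0.0118). Without 180 min replicate 1 it was 0.85 (adjusted p = 0.333), and it also missed the threshold without 120 min replicate 2 (adjusted p = 0.0556) or 120 min replicate 3 (adjusted p = 0.0628), or with no filter on low counts (0.93, adjusted p = 0.610). With filter and scaling recomputed after a library was left out, it was lost for 13 of the 24 libraries, most of them from other stages, with log2 fold changes between 0.82 and 1.57. The highest stage was 180 min with all libraries and 410 min without 180 min replicate 1, when the 180 min mean was 4015 CPM. With no filter on low counts, the F-test over the 8 stages gave an adjusted p of 0.122 in place of 0.000735. Its partner arm miR-52-3p had 42 reads, so 99.9% of the reads of mir-52 were 5p.

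The seed arm of mir-51 was scarce. It had 4, 0 and 0 reads at 60 min and 0, 16 and 5 reads at 120 min, and from 180 min on it had at least 6 reads in every library. Stage means from 180 to 500 min ran from 37.8 ± 12.8 CPM at 330 min to 74.8 ± 44.4 CPM at 500 min, against 15.0 ± 26.0 CPM at 60 min (SD, n = 3 each). Its 500 min level of 122, 69.3 and 33.4 CPM overlapped the 60 min values of 45.0, 0 and 0 CPM, and the log2 fold change of 2.50 ± 1.44 (SE) had an adjusted p of 0.129 in edgeR. All 4 reads at 60 min were in replicate 1. Without that library miR-51-5p was called higher at each stage from 180 min on, and at 500 min the adjusted p was 0.0101. With DESeq2 the 500 min comparison gave an adjusted p of 0.0342.

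The partner arm miR-51-3p had its own course. It was read in all 24 libraries, with 2192, 1144 and 2818 CPM at 60 min. At 270 min it had 1209, 459.5 and 1227 CPM, and at 500 min 3581, 1178 and 1526 CPM. The libraries of the first and last stage overlapped. The means of the 4 earlier stages, in order of time, were 2052 ± 846, 1395 ± 483, 1237 ± 681 and 1366 ± 59.2 CPM (SD, n = 3 each). Those of the 4 later stages were 965 ± 438, 1029 ± 476, 1579 ± 889 and 2095 ± 1298 CPM. The F-test over stages gave an adjusted p of 0.540 in edgeR, and the log2 fold change of 500 min over 60 min was 0.03 ± 0.60 (SE, adjusted p = 0.967). At 270 min, its lowest stage, the log2 fold change over 60 min was -1.09 ± 0.61 (adjusted p = 0.136). As a share of all counts it averaged 0.144 ± 0.0950% at 500 min and 0.141 ± 0.0250% at 60 min. The 500 min mean rests on replicate 1, and without it the stage averaged 1352 CPM.

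As the table names them, the arms of mir-51 had a very unequal number of reads, with the seed arm as the minor strand. How reads were assigned to arms is not given in the sources used here, and this ratio and every share of miR-51-3p depend on it. The 5p arm made up 2.92% of the hairpin's reads, with an exact 95% binomial interval of 2.66 to 3.21%. At 60 min it was 4 of 901 reads, or 0.444%, and from 120 to 500 min it ran between 1.45 and 4.27%. As counted, the hairpin mir-53 had a similar imbalance, with 48 seed arm reads and 1351 partner arm reads, so that 3.43% were 5p. The split of reads between miR-53-5p and miR-52-5p is uncertain, so seed arm reads of mir-53 may stand under miR-52-5p. In the other 4 hairpins the seed arm was the major strand. The least unequal of these was mir-55, with 508 reads on miR-55-3p and 120 on miR-55-5p.

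The partner arm miR-53-3p rose during the first stages. It had 0, 0 and 2 reads at 60 min, where both reads were in replicate 3, and 8, 2 and 59 reads at 120 min. At 180 min it had 61.3, 77.0 and 162 CPM, and at 500 min 419, 118 and 234 CPM. Every library at 180 min was above every one at 60 min, where the highest was 9.55 CPM. With 2 reads at 60 min, the ratio of 500 min to 60 min was 62.1 with a 95% counting interval of 17.0 to 516. The adjusted p in edgeR was 0.00631 at 180 min and 0.000244 at 500 min, and each stage from 180 min on was higher than 60 min. At 120 min the adjusted p was 0.0887, and it was 0.0184 with DESeq2 size factors in edgeR and 0.0170 with total counts. The level in 330 min replicate 2 was 8.36 CPM, far under the 131 and 134 CPM of the other libraries of that stage. The seed arm miR-53-5p had 37 of its 48 reads at 270 min, in all 3 libraries, and none at 60, 120, 225 or 500 min.

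The seed arm miR-54-3p, the most abundant strand of the X cluster, was not detected in any of the 597334 counts at 60 min, which allows up to 0.000502% of counts. At 120 min it had 85.3, 221 and 25.2 CPM from 23, 44 and 15 reads. At 330 min it had 683, 439 and 136 CPM, at 410 min 1883, 113 and 184 CPM, and at 500 min 426, 353 and 153 CPM. It was thus present in all 21 libraries after 60 min, and 410 min replicate 1 was far above the other libraries. Against the floor of 3 counts over the 60 min libraries, its stage mean was at least 14.6-fold higher at 120 min (adjusted p = 0.00553, edgeR). At 500 min the mean was at least 41.0-fold higher (adjusted p = 7.34e-05, edgeR). Arm miR-54-3p was the only member called against 60 min at all 7 later stages, and none of these calls was lost under any alternative or left-out library. With no reads at 60 min, it could pass the filter on low counts only through later stages, and could be called only higher. The calls and their survival thus describe its absence at 60 min and presence later, and give no separate support to the direction. The highest stage of miR-54-3p was 410 min, with a mean of 727 ± 1002 CPM (SD, n = 3). Without replicate 1 that stage averaged 149 CPM, and the highest was 330 min with 419 ± 274 CPM.

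The seed arm miR-55-3p had 2, 0 and 0 reads at 60 min and 6, 17 and 1 at 120 min. It had 102, 121 and 73.6 CPM at 330 min and 249, 75.5 and 38.5 CPM at 410 min, against at most 22.5 CPM in any library at 60 min. The stages 330 and 410 min were higher than 60 min, with adjusted p values of 0.0315 and 0.0201 in edgeR and ratios to 60 min of 18.2 (95% counting interval 4.90 to 153) and 19.4 (5.28 to 161). Both calls were fragile. The 330 min call was lost without 60 min replicate 2 (adjusted p = 0.101), 60 min replicate 3 (0.108), 330 min replicate 1 (0.0545) or 330 min replicate 2 (0.0590). The 410 min call was lost without 60 min replicate 2 (adjusted p = 0.0661), 60 min replicate 3 (0.0679) or 410 min replicate 1 (0.116). With no filter on low counts the adjusted p values were 0.112 at 330 min and 0.102 at 410 min. At 270 min the comparison gave 0.0970, but 0.0397 with total counts and 0.0300 with DESeq2. At 500 min it averaged 45.3 ± 23.8 CPM, against 7.50 ± 13.0 CPM at 60 min, with an adjusted p of 0.106, which was 0.0347 with DESeq2 and 0.0212 without 60 min replicate 1. The F-test over stages gave an adjusted p of 0.151 in edgeR, 0.0232 with DESeq2 and 0.0489 without 60 min replicate 1.

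The seed arm miR-56-3p appeared in the middle of the course and was low at both ends. It had no reads at 60 min, 2 in all at 120 min, and 10, 0 and 1 at 500 min. At 270 min it had 62.8, 106 and 21.3 CPM, at 330 min 49.1, 284 and 52.3 CPM, and at 410 min 40.5, 96.1 and 26.6 CPM. These 3 stages were called higher than 60 min, with adjusted p values of 0.0218, 0.00842 and 0.0213 in edgeR, in order of time. Their means were at least 8.35-fold, 17.0-fold and 7.18-fold above the 60 min floor of 7.57 CPM, and single libraries were nearer to it. The 330 min mean of 128 ± 135 CPM (SD, n = 3) rested on replicate 2, without which it was 50.7 CPM. The calls at 270 and 410 min were lost without 60 min replicate 3 (adjusted p = 0.0601 and 0.0576). The 270 min call was also lost without 270 min replicate 2 (0.0545), and the 410 min call without 410 min replicate 2 (0.0506). With no reads at 60 min, miR-56-3p could pass the filter on low counts only through later stages, and could be called only higher. At 500 min the level of 9.39 ± 12.4 CPM did not pass the test against 60 min (adjusted p = 0.135). The F-test over stages gave an adjusted p of 0.0152, and 0.0734 without 330 min replicate 2. Without that library the highest stage was 270 min in place of 330 min.

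Partner arms of the X cluster were rare. Reads of miR-55-5p were absent at 60 and 120 min and most frequent at 270 min, with 19, 5 and 16, and at 330 min, with 27, 8 and 3. At 330 min it had 110.4, 33.4 and 5.81 CPM, and the last of these was under the 60 min floor of 7.57 CPM. Without replicate 1 the 330 min mean was 19.6 CPM. With all 3 libraries the mean was 49.9 CPM, at least 6.59-fold above that floor, and was called higher (adjusted p = 0.0314, edgeR). This call was lost without any 1 of the 60 min libraries (adjusted p = 0.0587, 0.0705 and 0.107) and without 330 min replicate 1 (0.112), and was also lost with no filter on low counts (0.0954). Its F-test over stages (adjusted p = 0.0263) was lost without 330 min replicate 1 (0.119) and with no filter (0.0841). Having no reads at 60 min, miR-55-5p could pass the filter on low counts only through later stages, and could be called only higher. All 13 reads of miR-54-5p were in 330 min replicate 2, and miR-56-5p had 4 reads at 330 min and 2 at 410 min.

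**Figure D2:**
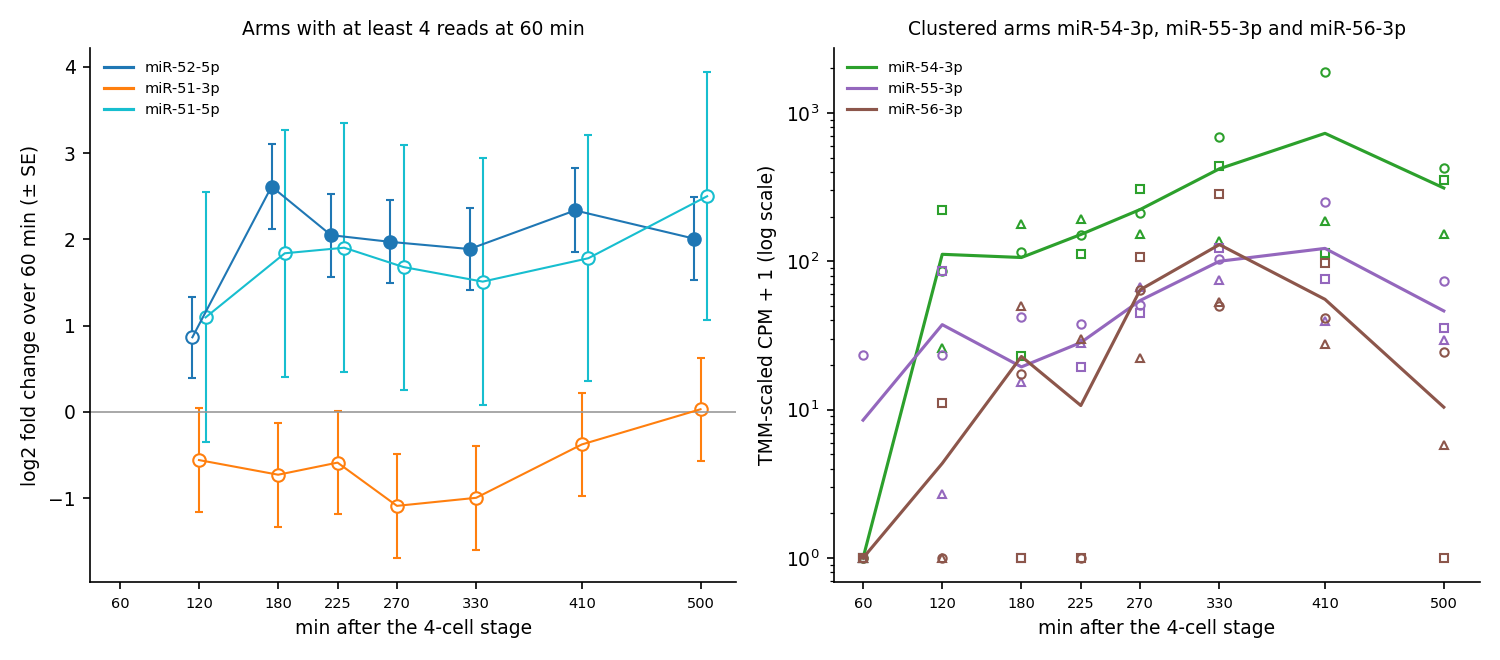
Left, log2 fold change over 60 min with its SE (y axis) at each later stage (x axis, minutes) for the 3 arms with at least 4 reads at 60 min; filled points have an adjusted p under 0.05. Right, TMM-scaled CPM plus 1 on a log axis for the 3 clustered seed arms of chromosome X, with points for libraries and lines for means: miR-52-5p is filled from 180 min on, miR-51-3p nowhere, and miR-56-3p is back at 9.39 CPM at 500 min.

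The onset of each member depended on the measure. By detection, defined as at least 1 read in each of the 3 libraries of a stage, miR-51-3p and miR-52-5p were present at 60 min. Arms miR-53-3p, miR-54-3p and miR-55-3p followed at 120 min, miR-51-5p at 180 min, and miR-56-3p, miR-55-5p, miR-52-3p and miR-53-5p at 270 min. Arms miR-54-5p and miR-56-5p reached this at no stage. With at least 3 reads asked of each library, miR-53-3p moved to 180 min and miR-55-3p to 270 min, and miR-52-3p and miR-53-5p qualified at no stage. Depth differed between stages: the 3 libraries at 270 min held 2090442 counts in all, and those at 60 min 597334. Its part in the order of detection was not tested. By the test against 60 min, the first stage called was 120 min for miR-54-3p, 180 min for miR-52-5p and miR-53-3p, 270 min for miR-56-3p and 330 min for miR-55-3p and miR-55-5p. Neither arm of mir-51 had a called stage. The onsets of miR-52-5p and miR-53-3p were 120 min with DESeq2, its size factors in edgeR or total counts. With a library left out and scaling recomputed, miR-53-3p was called at 120 min for 19 of the 24 libraries and miR-52-5p for 13. Another measure was the first stage to reach at least 50% of an arm's highest stage mean, which was 60 min for miR-51-3p, 180 min for miR-51-5p and miR-52-5p, 225 min for miR-53-3p, and 330 min for miR-54-3p, miR-55-3p, miR-55-5p and miR-56-3p. It held over all left-out libraries for miR-51-3p and miR-52-5p, but not for the other 6 tested arms. It moved to 270 min for miR-54-3p and miR-55-3p without 410 min replicate 1, for miR-55-5p without 330 min replicate 1, and for miR-56-3p without 330 min replicate 2 or 270 min replicate 3. It moved to 410 min for miR-54-3p without 330 min replicate 1, 410 min replicate 2 or 410 min replicate 3. For miR-53-3p it moved to 410 min without 225 min replicate 2, 410 min replicate 2 or 3, or 500 min replicate 2. For miR-51-5p it moved to 120 min without 120 min replicate 1 or 3 or 500 min replicate 1, and to 225 min without 180 min replicate 3 or 500 min replicate 3.

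The member that supplied most of the family changed between 60 and 120 min. In all 3 libraries at 60 min the leading arm was miR-51-3p, with 63.1% (exact 95% interval 57.5 to 68.5%), 57.1% (49.9 to 64.2%) and 63.7% (60.5 to 66.8%) of the family's reads. In each of the other 21 libraries it was miR-52-5p, with 56.1% in 120 min replicate 1 at the low end and 90.8% in 180 min replicate 1 at the high end. There were 0.55, 0.75 and 0.56 reads of miR-52-5p per read of miR-51-3p at 60 min, 1.37, 2.04 and 1.57 at 120 min, and 3.59, 3.73 and 3.81 at 225 min. By 500 min the ratios were 1.69, 3.49 and 3.01. In order of time, miR-52-5p averaged 37.9 ± 4.30, 58.1 ± 1.82, 79.7 ± 12.8 and 74.3 ± 0.440% of the family in the 4 earlier stages and 76.7 ± 2.39, 71.0 ± 5.13, 71.2 ± 12.7 and 65.5 ± 7.79% in the 4 later ones (SD, n = 3 each). The means of miR-51-3p were 61.3 ± 3.63, 35.8 ± 5.95, 16.4 ± 10.3 and 20.05 ± 0.627% in the earlier stages and 14.8 ± 5.00, 15.5 ± 5.41, 16.7 ± 7.17 and 25.6 ± 6.98% in the later ones. The third arm at each stage from 120 min on was miR-54-3p or miR-53-3p, and miR-54-3p averaged 6.43 ± 3.76% at 330 min and 6.62 ± 8.13% at 410 min, where it averaged 1.93% without replicate 1. Shares within the family need no library scaling.

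Shares at 410 and 500 min, joined to 6 libraries, were compared with those at 60 and 120 min, also 6, by an exact two-sided permutation test on each of the 4 arms that hold at least 1% of the family's reads. The smallest p this design allows is 0.00216, and p-values were adjusted over the 4 arms. Each group joins neighbouring stages, and miR-52-5p averaged 37.9% at 60 min and 58.1% at 120 min. The libraries of a group are thus not replicates of a single condition, and the spread in a group includes the step between its stages. Shares in a library are parts of a whole, so the 4 tests are not independent of each other. The share of miR-52-5p was 68.4 ± 9.91% late and 48.0 ± 11.4% early (SD, n = 6 each), 20.4 points higher (exact permutation p = 0.0152, adjusted p = 0.0202). That of miR-51-3p was 21.1 ± 7.98% late and 48.6 ± 14.6% early, a difference of -27.5 points (exact permutation p = 0.00433, adjusted p = 0.0173). That of miR-53-3p was 2.94 ± 0.850% late and 0.721 ± 1.24% early (exact permutation p = 0.00866, adjusted p = 0.0173). The late and early libraries overlapped for each of these 3 arms. For miR-54-3p the share was 5.37 ± 5.45% late and 1.43 ± 2.33% early (exact permutation p = 0.0866, adjusted p = 0.0866).

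**Figure D3:**
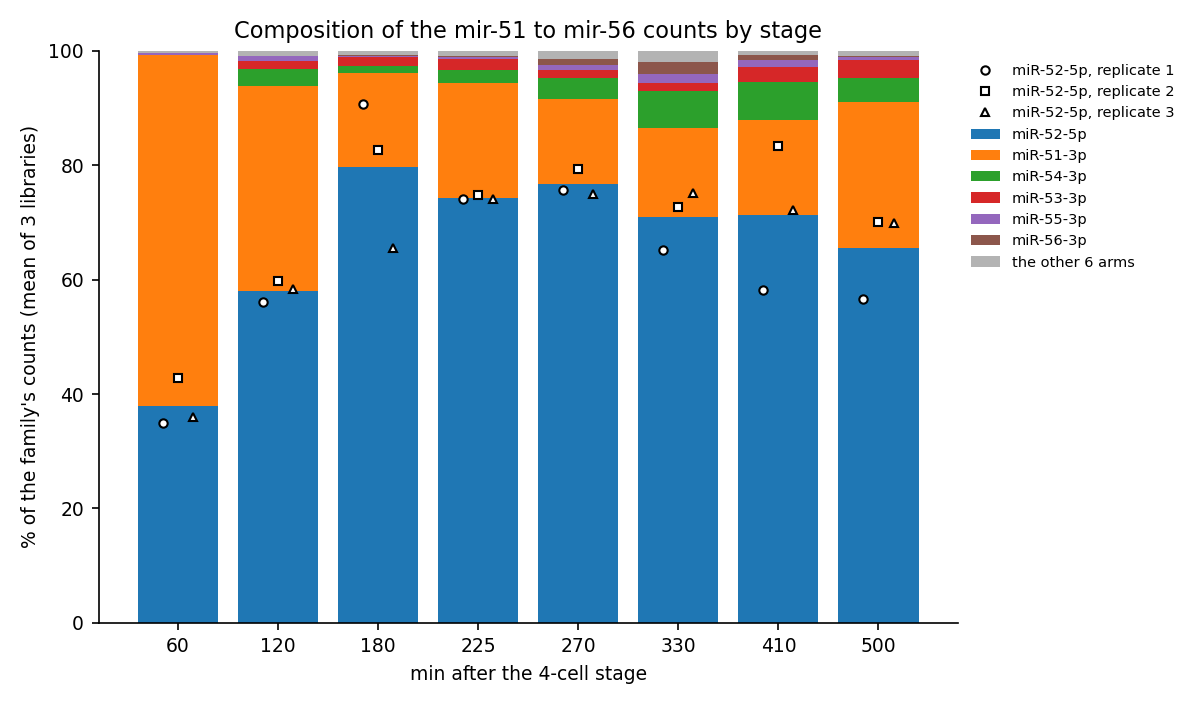
Mean percentage of the family's counts (y axis) taken by each arm at each stage (x axis, minutes after the 4-cell stage; stacked bars, means of 3 libraries), with points for the share of miR-52-5p in each library. The miR-51-3p segment is the tallest at 60 min (61.3%) and miR-52-5p is the tallest at every later stage.

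Counted over the seed arms alone, miR-52-5p led throughout and no change of leader was seen. Its mean share of seed arm reads, in order of time, was 98.2 ± 3.04, 93.0 ± 7.15, 96.9 ± 2.75 and 95.5 ± 0.981% in the 4 earlier stages and 92.1 ± 2.50, 86.8 ± 6.23, 88.5 ± 11.4 and 91.9 ± 3.04% in the 4 later ones (SD, n = 3 each). On this count its share was 90.2 ± 7.71% late and 95.6 ± 5.69% early, a difference of -5.43 points (exact permutation p = 0.219). The direction was opposite to that over all arms. By locus, the X cluster supplied 0.216% of the family at 60 min and 3.88% by 120 min, where it was 1.57% without replicate 2. Its highest means were 11.3 ± 6.41% at 330 min and 8.81 ± 8.68% at 410 min, and it supplied 4.81 ± 1.90% in the last stage. Without replicate 1 the 410 min mean was 3.83%. The neighbours mir-51 and mir-53 supplied 61.8% in the first stage, 17.2% at 270 min and 29.7% in the last, most of it miR-51-3p.

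Summed over its 12 arms, the family held 0.240, 0.198 and 0.251% of all counts at 60 min. It held 1.29, 0.731 and 0.778% at 180 min and 0.755, 0.383 and 0.438% at 500 min. All libraries at 500 min were above those at 60 min. In order of time the means were 0.229 ± 0.0281, 0.506 ± 0.0635, 0.932 ± 0.308 and 0.884 ± 0.0586% in the 4 earlier stages and 0.726 ± 0.0755, 0.710 ± 0.0843, 0.708 ± 0.218 and 0.525 ± 0.201% in the 4 later ones. The mean at 500 min was 2.29 times that at 60 min, and 4.33 times without miR-51-3p. The seed arms alone held 0.364 ± 0.0947% at 500 min and 0.0878 ± 0.00279% at 60 min. These sums were not tested.

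The mir-35 to mir-42 family, the other family needed in embryos, had another course. Set against the 5.02% of 60 min given above, its mean share was 0.997 ± 0.315% at 270 min and 0.613 ± 0.140% at 330 min, and the last 2 stages had 0.130 ± 0.00835 and 0.0473 ± 0.0195%. Its mean exceeded that of the mir-51 family up to 270 min and was below it from 330 min on. The ranges of the families over libraries overlapped at both 270 and 330 min. Within the same library, mir-35 to mir-42 counts were 95.1, 193 and 128% of mir-51 family counts at 270 min. At 330 min they were 84.3, 98.0 and 74.6%, so lower in each library. The bantam-related hairpins mir-58a, mir-58b and mir-80 to mir-82 held 1.46 ± 1.06 and 1.61 ± 0.294% in the first 2 stages, 12.5 ± 3.18% at 180 min and 20.8 ± 4.60% in the last stage. The mir-51 family was thus below the mir-58 group at every stage, and its mean at 500 min was below its mean at 180 min. Differences between the families were not tested.

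**Figure D4:**
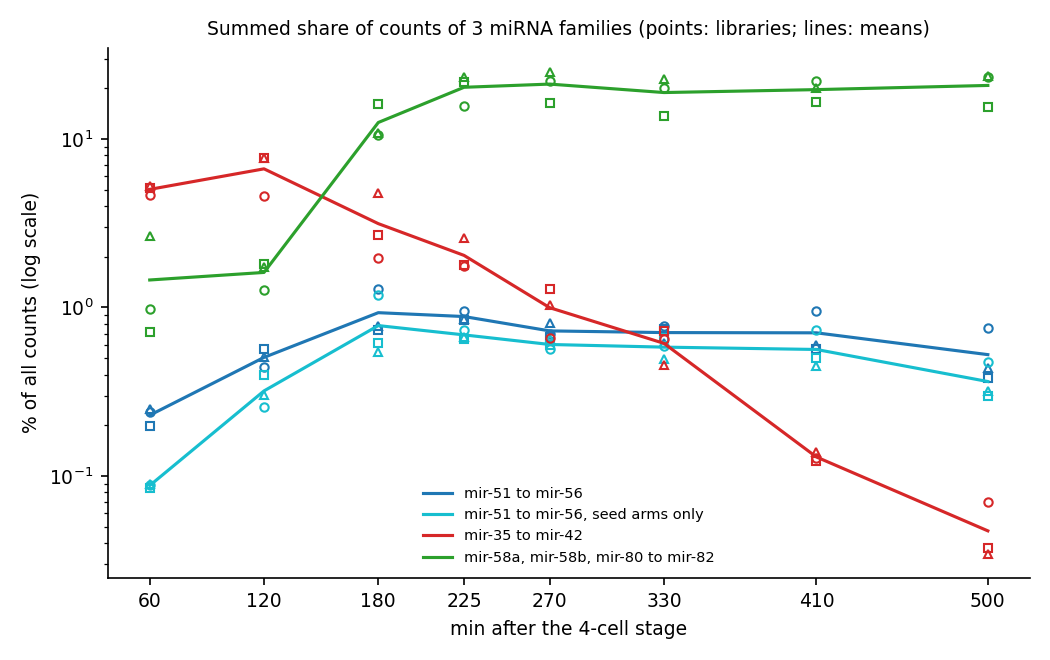
Summed percentage of all counts (y axis, log scale) of the mir-51 to mir-56 family, its seed arms alone, the mir-35 to mir-42 family and the mir-58 group against minutes after the 4-cell stage (x axis); points are libraries and lines are means of 3. The mir-51 family stays between 0.198 and 1.29% in all 24 libraries, while the mean of mir-35 to mir-42 goes below it at 330 min.

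Among the members, log2 CPM correlated most between the clustered arms miR-54-3p and miR-55-3p (Pearson r = 0.82 over 24 libraries), and r was 0.61 between miR-54-3p and miR-56-3p. Arm miR-52-5p had r = 0.74 with miR-54-3p and 0.75 with miR-53-3p. Against these, miR-51-3p had r = -0.05 with miR-52-5p, -0.04 with its own seed arm miR-51-5p and -0.36 with miR-56-3p. Of the 120 tested arms outside the family, those most like miR-52-5p were miR-44-5p (r = 0.88), miR-2-5p (0.85) and miR-228-3p (0.84), where the median over the 120 was 0.17. Those most like miR-51-3p were miR-250-5p (r = 0.65), miR-72-5p (0.59) and miR-71-5p (0.52), where the median was 0.06. The points share libraries, scaling and depth, and the values are descriptions only.

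In many animals a miR-100 gene lies in 1 cluster with let-7 and a lin-4 relative (miR-125), the classic regulators of developmental timing. A list of C. elegans hairpins of these families was looked up (let-7, mir-48, mir-84, mir-241, mir-795, lin-4 and mir-237). It was not drawn up to hold every hairpin of the families. The listed hairpins had 14 arms in the table, of which 11 had a read and 3 were tested. At 500 min against 60 min, none of the 3 passed in edgeR (nor at an unadjusted p under 0.05) or in DESeq2, where 34.4% of all arms were higher and 28.1% lower. The most read was miR-48-5p, with 1498 reads and 159 ± 114 CPM at 500 min, against 320 ± 506 CPM at 60 min (log2 fold change -1.04 ± 1.02 SE, adjusted p = 0.374, edgeR). The 60 min libraries had 56.2, 0 and 903 CPM, and without replicate 3, the library that stood apart, they averaged 28.1 CPM, so the direction of this difference turned. Its partner miR-48-3p had an adjusted p of 0.157 and miR-795-5p one of 0.273. The median log2 fold change of 500 min over 60 min was 0.30 over all 128 arms tested.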

How the data were processed

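The deposited data were whole-number read counts, not normalized, in a table with mature miRNA arms as rows and the 24 libraries as columns. TRIzol extraction and an Illumina TruSeq small RNA kit are named per the labels' protocols, with no mention of molecular identifiers. The submitters' processing notes name Bowtie and HTSeq without versions. For the genome build, the miRNA annotation, strand use and reads that map to several places, the answer is not given in the sources used here.

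Tests used edgeR 4.0.16 in R 4.3.3 on the counts as deposited. The function filterByExpr, grouped by stage and asking for 10 counts, kept 128 arms. TMM scaling and robust dispersions came from a fit of all 24 libraries on stage, and the quasi-likelihood F-test was applied to the 8 stages, to 7 later stages against 60 min and to 7 neighbouring steps. Benjamini-Hochberg adjustment covered all tested arms, and calls have an adjusted p under 0.05. The SE is the size of the log2 fold change divided by the square root of F. Where a stage had no reads, folds are bounds against a floor of 3 counts over its 3 libraries; with 1 to 3 reads, ratios have 95% counting intervals. Intervals and floors cover counting error only. The procedure was tested on simulated data. Likeness used log2 CPM with a prior count of 2, and the 3 highest arms are named. Shares in the family were compared by exact permutation (SciPy 1.17.1).

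Alternatives were DESeq2 1.42.0, its size factors, total counts, no low-count filter, removal of the 5 most abundant arms outside the family, a replicate block and left-out libraries. A left-out library was removed with the arms tested and TMM factors kept, and again with both recomputed; values in the text are of the first kind. All rows of the 6 hairpins are named. The members, lists and tests were chosen with earlier results of these data known.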

Additional observations from a re-analysis of the deposited data

Results flagged for a closer look

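For the 4 arms tested on their share of the family, each joined group of 6 libraries was checked by Dixon's criterion for a library far from the others. Chance picks out about 1 in 20 groups if all values come from a single normal population. Each group here joins neighbouring stages, and miR-54-3p had no reads at 60 min, so that rate does not hold and the flags are descriptions only. Of 8 groups, 3 had such a library. At 410 and 500 min, miR-54-3p made up 16.0% of the family in 410 min replicate 1. At 60 and 120 min, miR-54-3p made up 5.95% of the family in 120 min replicate 2, and miR-53-3p made up 3.22% in 120 min replicate 3.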

How the results depend on the processing

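The number of members called over the 8 stages was 5, and 4 to 6 under all alternatives. At 500 min against 60 min it was 3, with 5 in DESeq2 and 3 to 5 over left-out libraries (5 without 60 min replicate 1). Calls at later stages against 60 min numbered 25, with 30 in DESeq2 and 20 to 38 over left-out libraries (38 without 60 min replicate 1, recomputed). Between neighbouring stages 2 calls became 4 with DESeq2 size factors, 4 with total counts, 4 in DESeq2 and 1 with no low-count filter, and left-out libraries gave 1 to 5 (1 without 120 min replicate 2, 120 min replicate 3 or 180 min replicate 1; recomputed, 4 without 180 min replicate 3 or 330 min replicate 2 and 5 without 60 min replicate 1). The late minus early share of miR-52-5p was 20.4 points, and 17.4 to 22.7 over left-out libraries. It was 27.6 for 500 against 60 min alone, where 3 libraries each allow no p under 0.1, and it reversed to -5.43 over seed arms and to -7.78 without miR-51-3p (exact permutation p = 0.0606), an alternative chosen after seeing the data. The family's 500 to 60 min ratio of 2.29 was 4.33 without miR-51-3p, also chosen afterwards, and 1.79 to 2.60 over left-out libraries. Where no construction is named, the cause was not tested.

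Libraries of the same replicate number had a median correlation of 0.094 in their deviations over 84 pairs, of which 40 were over 0.1, against a median of -0.053 for other numbers, and 21 of 24 libraries correlated best with their own number, a hint from the data. Not every pair was over 0.1 and no label names a batch, so the numbers were not taken to pair the samples. The leading numbers of the deposited column names do run in a separate range for each replicate number, and what they stand for is not given. Whether replicate numbers mark a batch thus stays unsettled. With the replicate block, 4 members were called over the stages, 3 at 500 min, 26 at later stages and 2 between neighbours. Among named members the block gave miR-55-5p an adjusted p of 0.0631 over the stages and called miR-51-3p lower at 270 min (adjusted p = 0.0393).

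Depth limits the rare arms: 3 counts in 225 min replicate 2 are 33.9 CPM before scaling. The median log2 fold change over all arms for 500 min over 60 min was 0.30; scaling by DESeq2 size factors made it 0.59 and by total counts 0.08.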

Other observations

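The lowest miR-51-3p level of a stage was in the library numbered 2 at 7 of the 8 stages by TMM-scaled CPM, and at 6 of 8 as a share of all counts. This was noticed after the values were seen and was not tested.

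Across the stages, the 5p share of mir-55 reads was 13.8% at 410 min (29 of 210 reads, exact 95% interval 9.45 to 19.2%), against 29.2% at 330 min (38 of 130 reads, 21.6 to 37.8%). For mir-53, 0.231% of reads at 410 min were 5p (1 of 433, interval 0.00585 to 1.28%), against 14.5% at 270 min (37 of 256, 10.4 to 19.4%). Both were chosen after their values were seen, and the intervals cover counting error only. Each interval pools the 3 libraries of a stage. Most miR-55-5p reads at 330 min were in replicate 1, so the 5p share of mir-55 there rests largely on that library. Without it miR-55-5p averaged 19.6 CPM at 330 min, against 49.9 ± 54.2 CPM with it (SD, n = 3). At 270 min miR-53-5p averaged 19.4 ± 20.6 CPM (SD, n = 3). The mir-53 values also depend on the uncertain split of reads between miR-53-5p and miR-52-5p.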
